A study of Mus musculus with 6 samples.

Results

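Somatostatin and neuropeptide Y (NPY) are signalling peptides that striatal interneurons release together, and 10 genes of the 2 systems were followed in newborn mouse striatum. They are the peptide genes Sst, Cort and Npy, the somatostatin receptor genes Sstr1, Sstr2, Sstr3 and Sstr4, and the NPY receptor genes Npy1r, Npy2r and Npy5r. They were picked by symbol from the 47062 genes in the deposited table, and each of the 10 was found there once. The mutants were Drd2-Cre; Sp9Flox/Flox mice, in which Cre recombinase, driven from the promoter region of Drd2 (the dopamine D2 receptor gene), acts on floxed Sp9, a zinc finger transcription factor gene. The controls were Sp9Flox/Flox littermates with no Cre. Striatum with the subventricular zone was dissected at postnatal day 0, the strain background mixed CD1, C57BL/6J and 129S6, and 3 libraries of total RNA were sequenced per genotype. No group carried Drd2-Cre alone, so effects of the transgene and of the Sp9 deletion cannot be told apart, and since the labels do not give the number of animals per library, the spread behind every p-value is that of libraries and may be partly technical.

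In the adult striatum a sparse class of GABAergic interneurons makes somatostatin, NPY and neuronal nitric oxide synthase together. These cells arise in the medial ganglionic eminence, whereas the projection neurons that express Drd2 arise in the lateral one. Cortistatin, the product of Cort, is a close relative of somatostatin that binds the same receptors. All the receptors followed here couple to inhibitory G proteins, which lower cyclic AMP and open inward rectifier potassium channels.

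No member passed the threshold, an adjusted p under 0.05 with limma over all 16666 genes tested. The 2 peptide genes of the interneurons were abundant in both genotypes. Sst averaged 174 ± 27.3 FPKM in mutants and 145 ± 17.2 FPKM in controls, and Npy averaged 240 ± 19.8 FPKM in mutants and 189 ± 35.7 FPKM in controls (SD, n = 3 each). FPKM corrects fragment numbers for transcript length and library size, so levels can be roughly compared between genes. The correction was not always alike between libraries, as the values of Ece1 below show. The widest differences lay in 1 receptor gene of each system, Sstr2 and Npy1r, whose levels in the mutants were 2.35 and 1.92 times those in the controls by the ratio of mean FPKM and whose groups did not overlap.

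The libraries held 16237067 to 19457744 fragments in genes, estimated from the step of the deposited scaled counts. The targeted gene Sp9 had 8.37, 7.93 and 9.67 FPKM in mutant replicates 1 to 3, against 20.1, 19.0 and 17.3 FPKM in control replicates 1 to 3. Its log2 fold change, mutant over control, was -1.08 with an SE of 0.09. With an adjusted p of 0.0567 (limma), Sp9 itself also missed the threshold, although its groups did not overlap. The deleted stretch of Sp9 is not given in the labels. Striatal identity was checked with Ppp1r1b, which encodes DARPP-32, at 187 ± 19.6 FPKM in mutants and 200 ± 13.8 FPKM in controls, and Bcl11b at 168 ± 5.11 FPKM in mutants and 178 ± 10.7 FPKM in controls (SD, n = 3 each). Control replicate 3 was the only library with low Xist, 0.0604 FPKM against 186 to 235 FPKM in the other 5. Its summed FPKM of Y-linked genes was 102, and the next highest was 0.32 in control replicate 1. By these genes all 3 mutants had the female pattern and the controls were mixed, so sex was not balanced between genotypes. Sex therefore cannot be told apart from that library.

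Sst and Cort encode peptides that share a ring closed by a disulphide bond between 2 cysteines, the part that binds the receptors. The coding bases of that ring are shown to make the kinship visible, with capitals at the bases that differ between the 2 genes. They were read from the end of each GENCODE coding sequence, run from cysteine codon to cysteine codon, and lie on the minus strand of GRCm38 at chr16:23889732-23889767 for Sst and chr4:149125270-149125305 for Cort.
Sst ring: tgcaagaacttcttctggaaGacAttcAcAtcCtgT
Cort ring: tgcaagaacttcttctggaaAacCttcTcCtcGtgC
Of the 36 bases, 30 were identical (83.3%), and 7 of the 12 codons were the same. Codons that differ can still stand for the same amino acid, as the last codon does here, cysteine in both. The share of like codons is therefore not that of like amino acids.

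The levels fell into a steep order. Npy, at a mean of 215 FPKM over the 6 libraries, and Sst, at 160 FPKM, stood above 96.5% and 95.6% of the tested genes. Sstr2 followed at 5.86 FPKM, with Sst 27.2 times higher. Next came Npy1r at 3.33, Cort at 2.57, Sstr4 at 1.97, Sstr1 at 0.818, Npy2r at 0.548, Npy5r at 0.306 and Sstr3 at 0.114 FPKM. The ranges over libraries were apart between Sst and Sstr2, between Sstr4 and Sstr1 and between Npy5r and Sstr3, and overlapped for the other neighbours in this order. Within a library, Npy exceeded Sst in 6 of 6 libraries, whereas Npy1r exceeded Cort in 4 of 6 and Cort exceeded Sstr4 in 4 of 6.

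**Figure D1:**
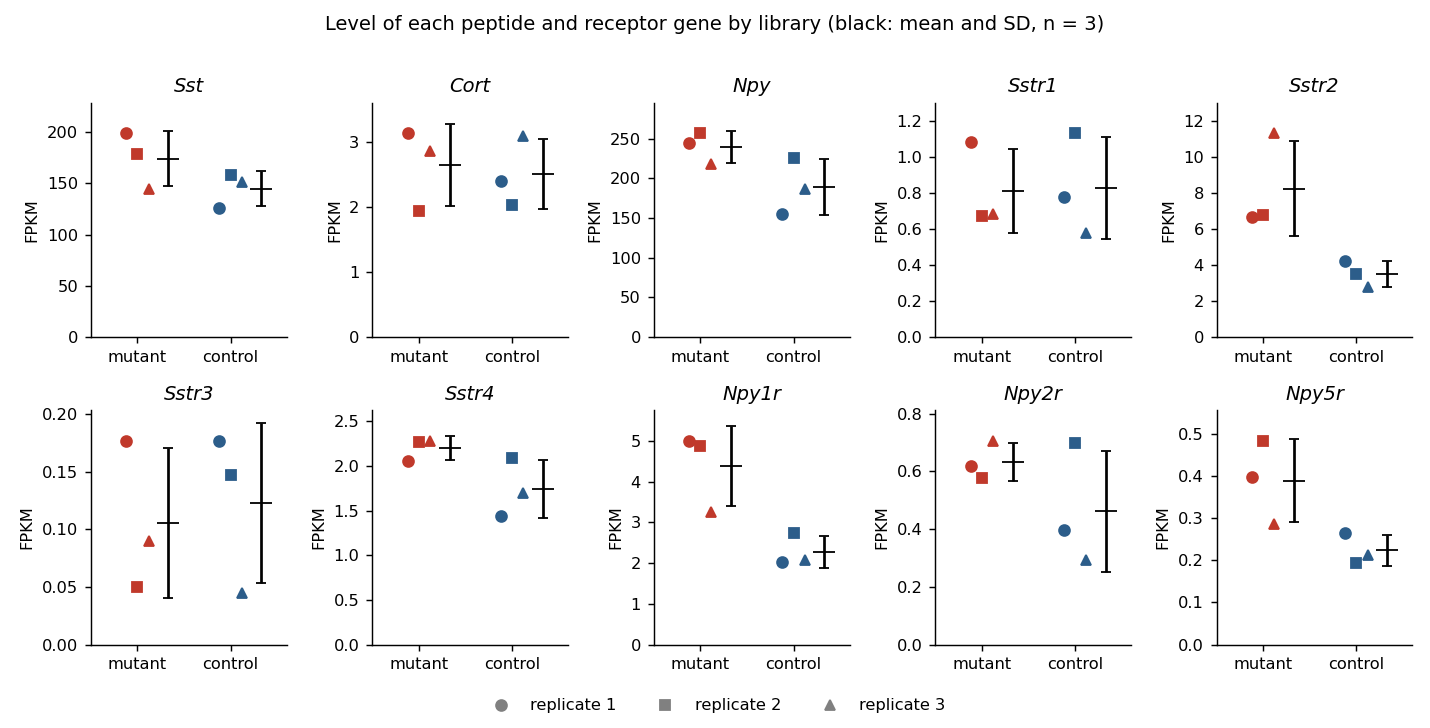
FPKM of the 10 genes in the 3 mutant and 3 control libraries (each panel starts at 0 and has its own scale; marker shape gives the replicate; black bars are the mean and SD, n = 3). The groups are apart for Sstr2, Npy1r and Npy5r and overlap for the other 7 genes.

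Among the peptides, Sst (ENSMUSG00000004366) had 199, 179 and 145 FPKM in mutant replicates 1 to 3, against 126, 158 and 151 FPKM in control replicates 1 to 3. The lowest mutant lay inside the control range, so the groups overlapped. The log2 fold change, mutant over control on log2(FPKM + 0.5), was 0.26 ± 0.14 (SE; 95% interval -0.09 to 0.62; adjusted p = 0.888, limma). Between 999 and 1671 fragments per library stood behind these values.

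Npy (ENSMUSG00000029819) had 245, 257 and 218 FPKM in the mutants, against 155, 226 and 187 FPKM in the controls. Mutant replicates 1 and 2 lay above every control, and mutant replicate 3 lay just under control replicate 2. The log2 fold change was 0.35 ± 0.15 (SE; 95% interval -0.01 to 0.72; adjusted p = 0.858, limma), with 1032 to 1768 fragments per library. The 2 peptide genes kept a narrow proportion: the ratio of Npy to Sst FPKM was 1.23, 1.44 and 1.50 in mutants and 1.23, 1.43 and 1.24 in controls, with means of 1.39 ± 0.142 in mutants and 1.30 ± 0.113 in controls (SD, n = 3 each). These ratios overlapped between genotypes.

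Cort (ENSMUSG00000028971) was low, with 3.13, 1.93 and 2.86 FPKM in mutants and 2.39, 2.03 and 3.09 FPKM in controls, from 19 to 31 fragments per library. Its groups overlapped across nearly their whole range. The log2 fold change was 0.06 ± 0.21 (SE; 95% interval -0.46 to 0.58; adjusted p = 0.985, limma), an interval that leaves room for differences of either sign.

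Of the somatostatin receptor genes, Sstr2 (ENSMUSG00000047904; GRCm38 chromosome 11, 113619342 to 113626028, plus strand) was the most abundant in all 6 libraries. It had 6.66, 6.74 and 11.3 FPKM in mutant replicates 1 to 3, against 4.20, 3.51 and 2.78 FPKM in control replicates 1 to 3. Every mutant lay above every control, and mutant replicate 3 stood well above the other mutants. The log2 fold change was 1.10 ± 0.24 (SE; 95% interval 0.50 to 1.70; unadjusted p = 0.00445, adjusted p = 0.654, limma), from 234 to 333 fragments in mutants and 90 to 147 in controls. Without mutant replicate 3 it was 0.86 (adjusted p = 0.614, limma). The study's design calls genes at a 2-fold difference or more with p no higher than 0.05 before adjustment; Sstr2 was the only member that met this, as did 0.342% of all tested genes. Slc39a11, a zinc transporter gene, overlaps Sstr2 on the opposite strand. It had 11.5 ± 0.673 FPKM in mutants and 11.2 ± 1.56 FPKM in controls (SD, n = 3 each), and whether the counting used strand is not given in the sources used here.

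Sstr4 (ENSMUSG00000037014) had 2.05, 2.27 and 2.28 FPKM in mutants, against 1.44, 2.09 and 1.70 FPKM in controls. These values rested on 25 to 42 fragments per library. Mutant replicate 1 lay just under control replicate 2, so the groups overlapped (log2 fold change 0.28 ± 0.14, SE; 95% interval -0.07 to 0.62; adjusted p = 0.884, limma). Sstr1 (ENSMUSG00000035431) ran from 0.672 to 1.08 FPKM in mutants and from 0.575 to 1.13 FPKM in controls, and its log2 fold change was -0.01 ± 0.22 (SE; 95% interval -0.57 to 0.54; adjusted p = 1.0, limma). Sstr3 (ENSMUSG00000044933), a receptor known from neuronal primary cilia, had 0.177, 0.0503 and 0.0897 FPKM in mutants and 0.177, 0.147 and 0.0445 FPKM in controls. These stand for 3 to 14 fragments per library, where 3 fragments have an exact Poisson 95% interval of 0.619 to 8.77 for counting error alone. Sstr3 lay under the filter, a mean of 0.5 FPKM, and was not tested.

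Sstr2 made up 66.8, 69.2 and 78.7% of the summed FPKM of Sstr1 to Sstr4 in the mutants, against 63.7, 51.1 and 54.5% in the controls. Sstr4 made up 20.6, 23.3 and 15.9% in mutants and 21.9, 30.3 and 33.4% in controls. The sum itself was 9.96, 9.73 and 14.3 FPKM in mutants and 6.59, 6.88 and 5.10 FPKM in controls. The mutant sums lay above the control sums, and the shares of Sstr2 were apart as well. These shares are given as a description, since they rest on the members themselves.

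**Figure D2:**
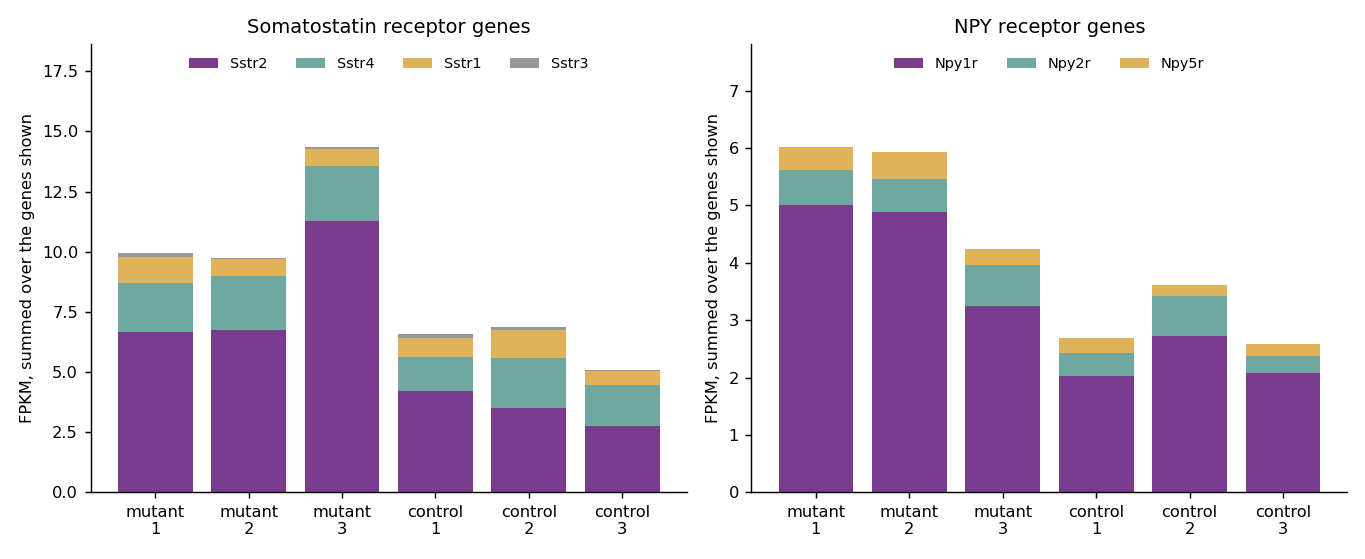
Stacked FPKM of the somatostatin receptor genes (left) and of the NPY receptor genes (right) in each mutant and control library, with axes that start at 0. Sstr2 and Npy1r are the largest block in every library, and each sum is higher in the 3 mutants than in the 3 controls.

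Npy1r (ENSMUSG00000036437; GRCm38 chromosome 8, 66697192 to 66706792, plus strand) encodes the Y1 receptor, which lies mostly on the cells that NPY acts upon. It had 5.0, 4.88 and 3.25 FPKM in mutant replicates 1 to 3, against 2.03, 2.73 and 2.08 FPKM in control replicates 1 to 3. Every mutant lay above every control, and mutant replicate 3 was the lowest of the mutants. The log2 fold change was 0.80 ± 0.19 (SE; 95% interval 0.32 to 1.28; unadjusted p = 0.00684, adjusted p = 0.695, limma), from 127 to 230 fragments in mutants and 82 to 119 in controls.

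Npy5r (ENSMUSG00000044014) is the neighbour of Npy1r on chromosome 8, on the opposite strand. It had 0.397, 0.483 and 0.286 FPKM in mutants, against 0.264, 0.193 and 0.212 FPKM in controls, and the groups were apart by a narrow margin. Mutant replicate 3 and control replicate 1 each rested on 8 fragments (exact Poisson 95% interval 3.45 to 15.8, counting error only). Npy5r lay under the filter and was tested only in the fit with no filter, where its log2 fold change was 0.29 ± 0.11 (SE; unadjusted p = 0.0423, adjusted p = 0.866, limma).

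Npy2r (ENSMUSG00000028004) encodes the Y2 receptor, known as an autoreceptor on NPY terminals. It had 0.620, 0.576 and 0.706 FPKM in mutants and 0.396, 0.697 and 0.292 FPKM in controls. Control replicate 2 lay inside the mutant range. The log2 fold change was 0.26 ± 0.21 on FPKM (SE; 95% interval -0.25 to 0.77; adjusted p = 0.888, limma) and 0.61 on scaled counts (adjusted p = 0.787, limma). The deposited columns part in 1 library: control replicate 2 had 41.5 scaled counts per FPKM of Npy2r, against 50.4 to 50.8 in the other libraries. On scaled counts the mutants of Npy2r lay above the controls without overlap.

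Over the members, 8 of 10 were tested, 7 of these had a log2 fold change above 0 and their median was 0.27, where 49.9% of all tested genes had a value above 0. At an unadjusted p under 0.05, 2 of the 8 were higher in mutants (2.65% of all tested genes) and 0 of the 8 were lower (2.99% of all tested genes; 5.65% in either direction). Groups were apart with the mutants higher in 2 of the 8 (5.33% of all tested genes), Sstr2 and Npy1r, and with the mutants lower in 0 of the 8 (6.05% of all tested genes). On scaled counts, Npy joined Sstr2 and Npy1r at an unadjusted p under 0.05 with limma, where 3.24% of all genes tested on that scale were higher at that p, and 0 of the 8 members in that fit passed the adjusted threshold, where 0.143% of all genes did. Past an adjusted p of 0.05 with limma there were 0 of the 8, where 0.06% of all tested genes passed. In bulk tissue, a change in the number of cells of a type and a change in RNA per cell cannot be told apart.

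**Figure D3:**
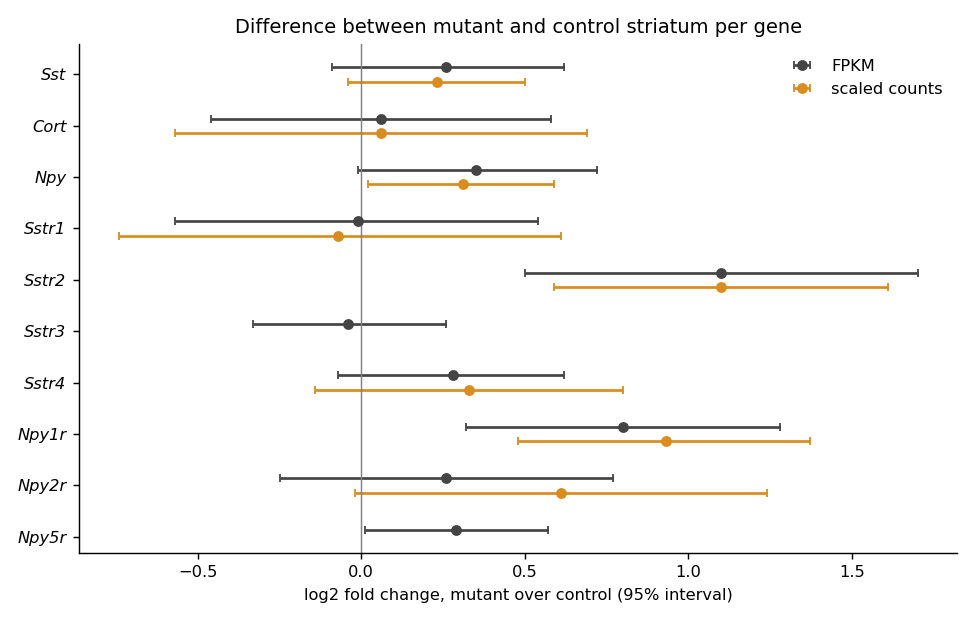
Log2 fold change of each member, mutant over control, with its 95% interval, from the FPKM (dark) and from the scaled counts (orange). The intervals of Sstr2 and Npy1r lie above 0 in both; Sstr3 and Npy5r come from the fit with no filter and have no scaled count value, since their mean scaled count was under 10.

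The promoters of Sst and Sstr2 are shown because a peptide gene and its main receptor gene here carry the same cyclic AMP response element, the palindrome TGACGTCA that the factor CREB binds; it is printed in capitals. The sequences are RefSeq windows on GRCm38.p6 from 250 bases before to 50 after the gene start, read along the gene, at chr16:23890795-23891094 (minus strand) and chr11:113619077-113619376 (plus strand).
Sst promoter: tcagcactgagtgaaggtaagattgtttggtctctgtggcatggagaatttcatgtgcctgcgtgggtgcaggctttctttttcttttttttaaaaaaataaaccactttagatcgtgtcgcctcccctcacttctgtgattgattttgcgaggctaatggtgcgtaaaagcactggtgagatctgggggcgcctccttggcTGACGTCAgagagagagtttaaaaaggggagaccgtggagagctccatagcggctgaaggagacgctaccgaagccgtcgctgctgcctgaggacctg
Sstr2 promoter: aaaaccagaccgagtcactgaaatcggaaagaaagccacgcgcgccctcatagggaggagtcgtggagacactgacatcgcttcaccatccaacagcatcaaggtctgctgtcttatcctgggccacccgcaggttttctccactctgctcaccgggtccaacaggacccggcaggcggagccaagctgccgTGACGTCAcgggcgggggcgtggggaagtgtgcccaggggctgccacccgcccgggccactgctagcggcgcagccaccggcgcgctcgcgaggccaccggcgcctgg
The element began 48 bases before the start of Sst and 58 bases before that of Sstr2. Windows were held for 9 of the 10 members, 2 of the 9 had it on either strand, and 1.79% of all 32851 windows of this length did. The GC box GGGCGG, the core that Sp proteins are known to bind, was found on either strand in 3 of the 9, in Npy, Npy2r and Sstr2, and in 35.7% of all windows; it did not overlap the element in Sstr2. A match describes the letters and not the use of a site, and RNA levels do not show which factor bound there.

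Genes listed for the interneurons making these peptides had estimates mostly just above 0. Not all of them are particular to these cells: Gad1 and Gad2, for example, are also expressed by other GABAergic neurons of the striatum. Of 17 in the list, 16 were tested, none passed the adjusted threshold with limma, and 15 had a log2 fold change above 0 (49.9% of all tested genes did), with a median of 0.20. At an unadjusted p under 0.05, 4 were higher and 0 were lower, where 2.65% of all tested genes were higher and 2.99% lower. Nos1, the gene for neuronal nitric oxide synthase, had 8.08 ± 0.279 FPKM in mutants and 6.32 ± 0.851 FPKM in controls (log2 fold change 0.34 ± 0.10, SE; adjusted p = 0.795, limma). Grin3a, a glutamate receptor subunit gene, had 3.87 ± 0.347 FPKM in mutants and 2.74 ± 0.233 FPKM in controls, Nxph1, a secreted neurexin ligand, 8.83 ± 0.184 FPKM in mutants and 7.60 ± 0.274 FPKM in controls, and the transcription factor gene Npas1 1.87 ± 0.126 FPKM in mutants and 1.33 ± 0.142 FPKM in controls (SD, n = 3 each). In these 4 genes, and in Chodl, known in cortex from the cells with long axons, which was singled out after its values were seen, the groups were apart, with mutants higher, as in 5.33% of all tested genes. Lhx6, which directs medial eminence interneurons to their fate, had 18.1 ± 1.86 FPKM in mutants and 16.6 ± 1.75 FPKM in controls and was also named after its values were seen. The list has counts alone here, and whether its genes moved more than others was not tested.

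**Figure D4:**
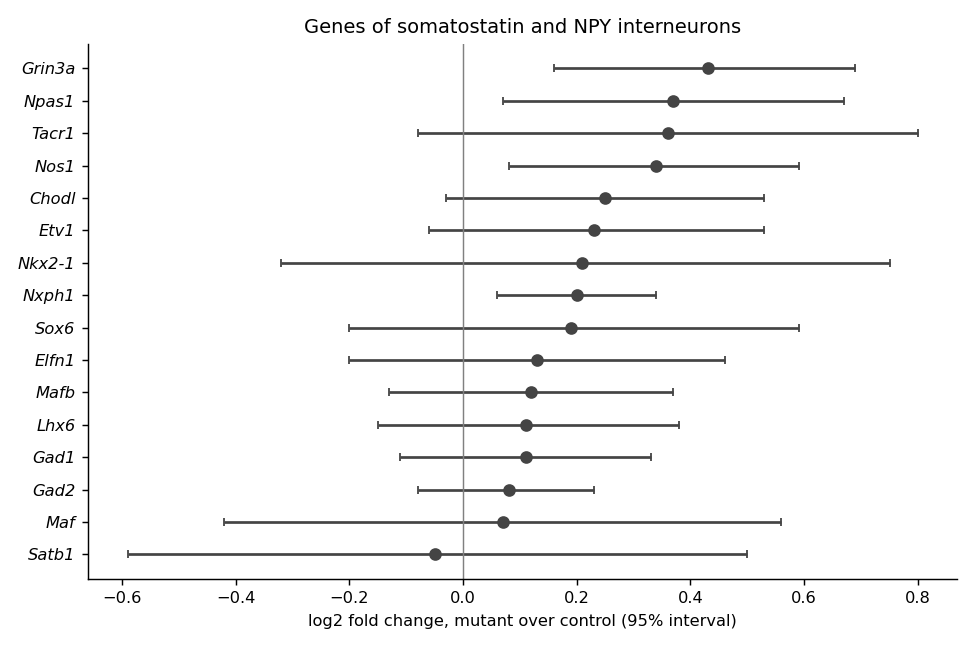
Log2 fold change, mutant over control, with its 95% interval for the 16 tested genes listed for somatostatin and NPY interneurons, not all of them particular to these cells. The estimates run from -0.05 (Satb1) to 0.43 (Grin3a), with 15 of 16 above 0.

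Genes that process, break down and store the peptides gave no call. Of 12 genes for neuropeptide processing and breakdown, 11 were tested, none passed with limma, and at an unadjusted p under 0.05 there were 2 lower and 0 higher, against 2.99% lower and 2.65% higher over all tested genes. Pcsk2, a convertase that cuts peptide precursors, had 42.5 ± 3.89 FPKM in mutants and 53.5 ± 7.12 FPKM in controls, and Mme, the gene for neprilysin, an enzyme that degrades somatostatin, had 6.30 ± 0.882 FPKM in mutants and 7.93 ± 0.393 FPKM in controls (SD, n = 3 each). Pcsk1, the partner convertase, was far lower in level, at 0.865 ± 0.205 FPKM in mutants and 0.600 ± 0.0960 FPKM in controls, and Ide, the insulin-degrading enzyme, had 13.9 ± 3.64 FPKM in mutants and 9.95 ± 1.05 FPKM in controls. Ece1, an endothelin-converting enzyme gene named after its values were seen, had 9.61, 10.3 and 10.9 FPKM in mutants and 62.1, 10.5 and 10.7 FPKM in controls. Control replicate 1 stood apart in FPKM, while its estimated 817 fragments lay within the 692 to 879 of all 6 libraries. All 7 genes of dense core granule proteins were tested, and 0 had even an unadjusted p under 0.05 with limma; Vgf, for example, had 32.8 ± 3.10 FPKM in mutants and 30.6 ± 4.69 FPKM in controls, and Scg2 had 26.8 ± 1.51 FPKM in mutants and 24.7 ± 5.02 FPKM in controls.

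Downstream of the receptors, 13 of 15 genes of inhibitory G protein signalling were tested and none passed with limma. At an unadjusted p under 0.05, 2 were higher and 2 were lower (2.65% and 2.99% of all tested genes), and the median log2 fold change was -0.01. Kcnj3, a subunit of the potassium channel that these receptors open, had 1.15 ± 0.126 FPKM in mutants and 0.670 ± 0.240 FPKM in controls, and Grk3, a kinase that switches receptors off, had 9.15 ± 0.932 FPKM in mutants and 6.97 ± 1.04 FPKM in controls. Gnao1, the most abundant inhibitory G protein gene of brain, had 320 ± 8.59 FPKM in mutants and 354 ± 9.32 FPKM in controls, and the adenylyl cyclase gene Adcy1 had 89.5 ± 8.36 FPKM in mutants and 106 ± 4.25 FPKM in controls (SD, n = 3 each). Of the further family genes Sstr5, Npy4r, Npy6r, Pyy and Ppy, Sstr5 alone passed the filter, with 0.750 ± 0.124 FPKM in mutants and 0.754 ± 0.125 FPKM in controls, and the other 4 were under 0.1 FPKM in every library.

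Markers of other cells were set beside Sstr2 and Npy1r by library, as a description. The summed FPKM of 9 markers of cortical glutamatergic neurons was 37.6, 9.69 and 62.0 in mutants and 23.4, 25.8 and 8.99 in controls; 7 were tested, none passed with limma, and Slc17a7, a vesicular glutamate transporter gene, had the smallest p, at 0.833 ± 0.475 FPKM in mutants and 0.230 ± 0.0708 FPKM in controls (SD, n = 3 each). Mutant replicate 3 had both the highest Sstr2 and the highest cortical sum. Mutant replicate 2 had a cortical sum under that of control replicates 1 and 2, and its Sstr2 of 6.74 FPKM was above their 4.20 and 3.51 FPKM. Npy1r was lowest among mutants where the cortical sum was highest. The sum over 6 cholinergic markers was 23.0, 29.6 and 20.8 FPKM in mutants and 13.1, 19.5 and 19.5 FPKM in controls, without overlap, with 6 of 6 estimates above 0 and none past the threshold with limma; Lhx8 had 12.1 ± 1.69 FPKM in mutants and 8.39 ± 1.83 FPKM in controls. All 8 genes of direct pathway neurons were tested and none passed with limma; at an unadjusted p under 0.05, 3 were higher and 1 was lower (2.65% and 2.99% of all tested genes), and these 4 had groups apart (5.33% of all tested genes were apart and higher, 6.05% apart and lower). Drd1, the D1 dopamine receptor gene, had 39.3 ± 2.91 FPKM in mutants and 23.7 ± 4.31 FPKM in controls, and the mitochondrial carrier gene Sfxn1 37.6 ± 2.36 FPKM in mutants and 27.7 ± 3.02 FPKM in controls. Pdyn, which encodes the dynorphin precursor, had 24.2 ± 3.96 FPKM in mutants and 17.0 ± 2.99 FPKM in controls, and Isl1, a transcription factor gene, was the lower one, at 54.7 ± 1.34 FPKM in mutants and 64.3 ± 3.57 FPKM in controls (SD, n = 3 each). The sum over the 8 genes was 520, 473 and 503 FPKM in mutants and 457, 477 and 486 FPKM in controls, with overlap. The part of these cells in the values of Sstr2 and Npy1r was not tested.

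**Figure D5:**
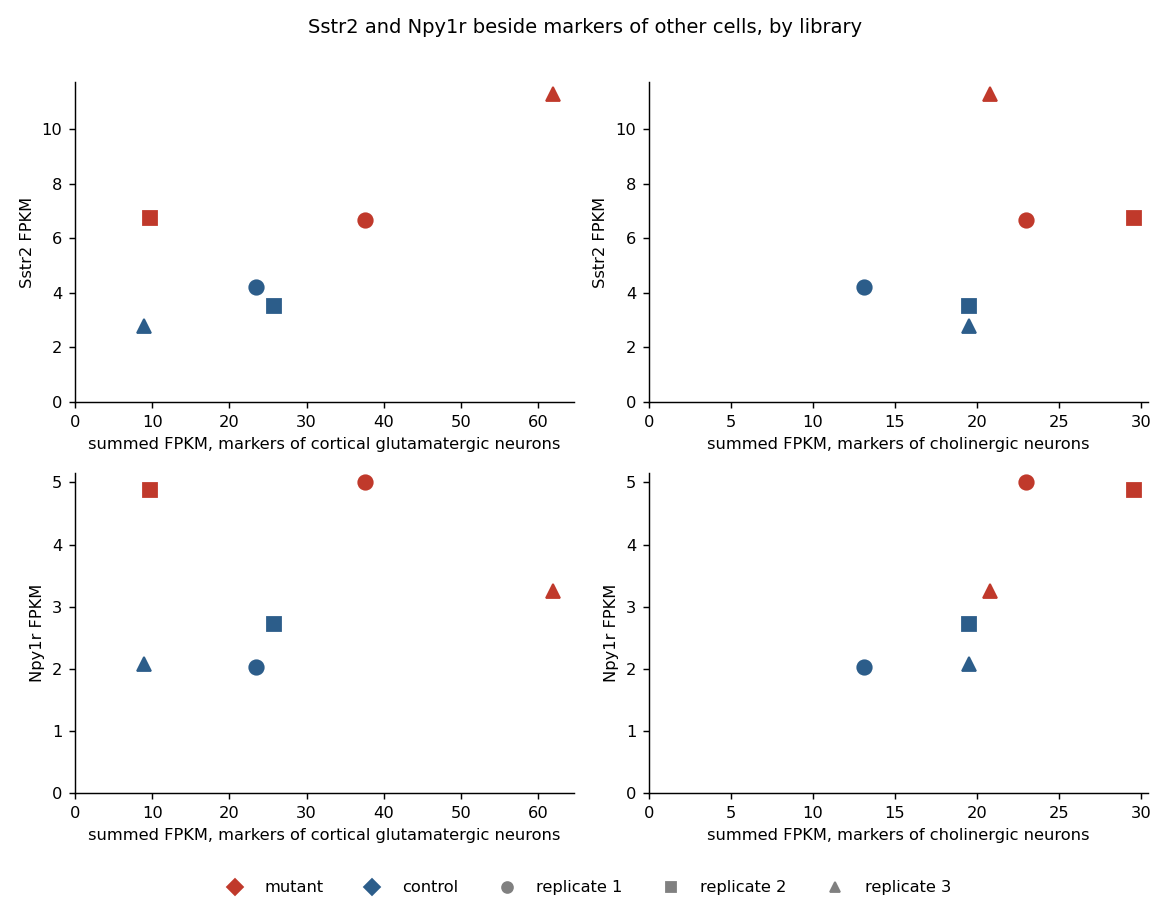
Sstr2 (top) and Npy1r (bottom) in FPKM against the summed FPKM of cortical (left) and cholinergic (right) markers, 1 point per library, with both axes from 0. Mutant replicate 3 stands at the far right of the cortical panels and has the highest Sstr2. Mutant replicate 2 sits at the left, and its Sstr2 is above all 3 controls. No association was tested.

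Of the remaining cell lists, that of indirect pathway neurons had 7 tested genes, of which 2 fell past the threshold with limma (0.06% of all tested genes passed). Adora2a, an adenosine receptor gene, had 4.11 ± 1.18 FPKM in mutants and 44.3 ± 3.26 FPKM in controls (adjusted p = 0.00852, limma). The kainate receptor gene Grik3 had 11.1 ± 0.736 FPKM in mutants and 25.4 ± 1.81 FPKM in controls (adjusted p = 0.0156, limma). At an unadjusted p under 0.05 with limma, 6 of the 7 were lower (2.99% of all tested genes). The same 6 had groups apart with the mutants lower (6.05% of all tested genes). Drd2 had 44.4 ± 1.97 FPKM in mutants and 45.0 ± 3.25 FPKM in controls (SD, n = 3 each). Its log2 fold change was -0.02 (adjusted p = 0.986, limma). With 1 library left out, Adora2a passed without mutant replicate 2 or 3 and missed the threshold without mutant replicate 1 or any 1 control (adjusted p 0.0583 to 0.0853, limma). Grik3 passed without mutant replicate 2 or control replicate 1 and missed it in the other 4 cases (adjusted p 0.0667 to 0.101, limma). The other 11 cell lists held no gene past the threshold, and their median log2 fold changes lay between -0.11 for shared projection neuron genes and 0.60 for cortical genes. The cortical median was 0.02 without mutant replicate 3, 0.21 without control replicate 3 and 1.21 without mutant replicate 2. Of the markers of the hypothalamus, another source of both peptides, 2 of 9 were tested: Trh had 1.81 ± 0.528 FPKM in mutants and 1.84 ± 0.0201 FPKM in controls, and Pomc had 0.616 ± 0.167 FPKM in mutants and 0.641 ± 0.418 FPKM in controls (SD, n = 3 each). Otp and Sim1 stayed under 0.1 FPKM in every library, Agrp, which marks hypothalamic NPY neurons, averaged 0.111 FPKM in mutants and 0.118 FPKM in controls, and the sum over 9 markers was 2.37 to 3.70 FPKM in mutants and 2.53 to 3.63 FPKM in controls.

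The genes whose levels ran most like those of 3 members over the 6 libraries were listed by Pearson's r of log2(FPKM + 0.5) among 9189 genes with an established symbol and a mean of at least 5 FPKM. With so many genes and 6 libraries, high values arise readily, and they are a description. For Npy the closest was Resp18, which encodes a protein of the regulated secretory pathway (r = 0.9986), with 8.95, 9.45 and 7.10 FPKM in mutants and 3.98, 7.85 and 5.68 FPKM in controls, followed by Sphk2 and Tenm3. Sst ran most like Amd1 (r = 0.9953), Hrk and Terf2ip, and Sstr2 most like Cited2 (r = 0.986), Ppm1e and Pnrc2.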

How the data were processed

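Per the submitters' processing notes, TopHat and Cufflinks 2.1.1 were used with GRCm38.p4; for the annotation release and strandedness, the sources used here give nothing. The authors deposited FPKM and a further column per library, whose values are not whole; 97.64 to 97.94% of those of at least 0.01 lie within 0.1 of whole multiples of 1 step per library. This deposited signal (scaled counts) was given no count test. Columns were matched to libraries by the codes in the labels. Symbols came from GENCODE M21 and matched 46483 of 47062 identifiers.

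With limma 3.58.1 (R 4.3.3), log2(FPKM + 0.5) was modelled by genotype alone over the 6 libraries, with a variance trend; genes averaging at least 0.5 FPKM entered. p-values are two-sided and adjusted over all genes tested by the Benjamini-Hochberg method, and the fold changes understate those of low genes. The steps were tested on simulated data.

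Members and lists were chosen with earlier results of these data known. Named genes are the members, Sp9, from each pathway list those past the threshold and up to 4 others by p, and from each cell list those past it and up to 2 others, with the 3 genes that ran most like Sst, Npy and Sstr2. Ppp1r1b, Bcl11b, Drd2, Slc39a11, Xist, Agrp, Otp and Sim1 were named after their values were seen. Library deviations sharing a replicate number had correlations of 0.00246, 0.0372 and 0.0433, and those with unlike numbers ran from -0.0683 to 0.0328. Values this near 0 cannot show whether the numbers pair libraries, by litter or batch for example. Alternatives were other pseudocounts, filters and scalings, scaled counts, robust limma, a replicate block and each library left out.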

Additional observations from a re-analysis of the deposited data

How the results depend on the processing

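No member passed an adjusted p of 0.05 under any of the 16 alternatives run, all with limma. The count at an unadjusted p under 0.05 was 2 and stayed at 2 or 3 under the 10 alternatives that kept every library. It was 3 with the replicate block, whose numbers are not known to pair the libraries, and ran from 2 to 5 with 1 library left out. The 5, without control replicate 2, were Npy, Sstr2, Sstr4, Npy1r and Npy2r. In the reported fit, 5.65% of all tested genes lay under that p with limma, in either direction. That share was not worked out for the fits with 1 library left out, so whether their counts stand above it cannot be said. Sstr2 ranged from 0.86 to 1.22 (adjusted p 0.184 to 1.0) and Npy1r from 0.70 to 0.98 (0.207 to 1.0) on the log2 scale, with the lowest adjusted p on scaled counts. With the replicate block the adjusted p of each was 0.868. Sst (0.16 to 0.39), Npy (0.22 to 0.49), Sstr4 (0.18 to 0.38) and Npy2r (0.13 to 0.61) also kept their direction in every alternative in which they were fitted. Cort (0.06 as reported) turned to -0.06 without mutant replicate 1 or control replicate 2 and to -0.00 without mutant replicate 3, and ran up to 0.23 with 1 library left out. Sstr1 (-0.01) turned to 0.06 without mutant replicate 2 or mutant replicate 3 and to 0.15 without control replicate 2, and ran down to -0.15. With a mean of at least 1 FPKM, Sstr1 and Npy2r could not be fitted. Scaled counts, which are not per length, gave a median Npy to Sst ratio of 1.19 in mutants and 1.04 in controls (on FPKM 1.44 in mutants and 1.24 in controls); median shares were 78.8% in mutants and 67.2% in controls for Sstr2, 1.53% in mutants and 5.47% in controls for Sstr3, and 12.1% in mutants and 18.4% in controls for Sstr4.

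The genes past the threshold in the indirect list, 2 as reported, numbered 0 without control replicate 2 or 3 and 1 without control replicate 1, mutant replicate 1 or mutant replicate 3 (without mutant replicate 1 it was Gpr6, not Adora2a or Grik3); they numbered 0 with the replicate block, 3 with robust limma or a mean scaled count of at least 10, and 5 on scaled counts. Counts limit Sstr3, Npy5r, Sstr1, Cort, Npy2r and Sstr4, with 3 to 42 fragments per library, where only wide differences could be seen.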

Other observations

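The deposited columns differ for Sstr2 in more than scale. Scaled counts per FPKM of Sstr2 were 34.3, 34.8 and 34.1 in mutant replicates 1 to 3, against 36.9, 36.7 and 37.0 in control replicates 1 to 3, without overlap between genotypes. For Npy1r the same quotient ran only from 44.6 to 45.1 over all libraries, and for Npy it was 6.70, 6.67 and 7.03 in mutants and 7.02, 7.07 and 7.01 in controls. The isoforms of Sstr2 were not analysed here, and the source of this difference was not tested.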
